A study of Caenorhabditis elegans with 2 samples.

Results

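Peaks of the C. elegans protein DMD-9 that lie in introns, away from promoters, are described here. They are the peaks of the pooled list whose summit fell inside a protein-coding gene, in no coding exon or UTR, outside a window of 1000 bp upstream to 200 bp downstream of every protein-coding 5' end, and over 100 bp from any tRNA gene. The rule used position alone and kept 241 of 1379 peaks. Chromatin immunoprecipitation and sequencing (ChIP-seq) was done with an anti-GFP antibody on whole L4 larvae, 48 hours old and synchronised at L1 by bleaching and starvation. The strain was RJP5357, in which CRISPR put GFP::AID::TEV::3xFLAG into dmd-9 on chromosome IV, so all samples carry the tagged gene, a degron and a protease site. The series has 1 group of 2 biological replicates and no second strain, stage or treatment, and sonicated DNA had a size range of 200 to 800 bp. The control library was not used here and sequencing depth is unknown. Whole animals mix all cell types.

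DM-domain proteins bind DNA through an intertwined zinc module and are known from sex-specific development, with doublesex and MAB-3 as the name-giving members. Worm introns often host genes for small RNAs. Small nucleolar RNAs (snoRNAs) guide the modification of ribosomal RNA, small nuclear RNAs (snRNAs) work in splicing, and microRNAs silence messenger RNAs. RNA polymerase III reads some small RNA genes from an internal or nearby promoter made of an A box and a B box, as in tRNA genes, or from an upstream promoter.

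Small RNA genes lay beside a minority of the intronic peaks but beside many of the strongest. A snoRNA, snRNA or miRNA gene lay within 100 bp of the summit for 33 of the 241 peaks, and such genes stood beside 9 of the 25 strongest. An A box, spelled TGGC, any 2 bases and AGTGG, was within 50 bp of the summit in 12 peaks and a B box spelled GTTCGANNC in 9 peaks. The sequences below carry these letters or the other motifs that were more frequent than in weaker intronic peaks, and come from 7 strong carriers, not from every one. All are read 5' to 3' from the WBcel235 genome, which has the coordinates of ce11, on the strand given, and capitals mark the motif.

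frm-7, B box, chrV:12303654-12303683, plus strand: ggcttcgttgGTTCGACCCccgcgcgtagt

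twk-5, A box, chrII:11484795-11484824, minus strand: actgcatttgTGGCCGAGTGGtgtgcgcgt

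max-2, GAGA, chrII:13016537-13016566, plus strand: acggtaaaaaatGAGAGAcgcagagacatg

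max-2, SP1 box, chrII:13016606-13016635, minus strand: ccgcaggaatctCCGCCCacccaccacact

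gly-5, E box, chrIII:13187968-13187997, plus strand: acccgtgtactaCACGTGgacgatgtgtcc

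Y43F8C.7, A box, chrV:19643221-19643250, minus strand: ttgctacccgTGGCTTAGTGGctaacgcgc

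Y43F8C.7, SP1 box, chrV:19643196-19643225, minus strand: cgcgctcgcctgCCGCCCacagcttccggg

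Y43F8C.7, B box, chrV:19643178-19643207, minus strand: acagcttccggGTTCGATTCccacccacgg

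catp-8, GAGA, chrIV:11474262-11474291, plus strand: gcaatgccgccgGAGAGAtacaactcgcgt

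unc-104, B box, chrII:7001668-7001697, plus strand: gaagtctgggGTTCGATTCcccatacctcc

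Of the 33 peaks beside small RNA genes, 23 were near a snoRNA gene, 8 near an snRNA gene and 2 near a miRNA gene. The snoRNA peaks had a median pooled signal of 120 (range 61.1 to 269), the snRNA peaks 81.1 (68.2 to 207), and the 187 peaks with no RNA gene or pseudogene within 100 bp 75.5 (3.84 to 288). The signal is the authors' value per peak and is used to describe and rank peaks within a list. It is not scaled between lists, so values of different lists are printed side by side and not compared in size. Another 17 peaks were near other non-coding RNA genes and 4 near pseudogenes.

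The strongest snoRNA peak lay in intron 17 of pxn-1 (WBGene00004256), which encodes a peroxidasin of the extracellular matrix. Its summit was 12 bp upstream of the snoRNA gene ZK994.7 (WBGene00044958), and its signal was 269 in the pooled list, 139 in replicate 1 and 132 in replicate 2. The peak in cutl-18, a cuticlin-like gene, had 249 in the pooled list, 119 in replicate 1 and 123 in replicate 2, and its summit was 24 bp upstream of the snoRNA gene T03F7.8. Among the intronic peaks, both were among the highest of each replicate.

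In frm-7, a gene for a FERM-domain protein, the summit was inside the snoRNA gene C51F7.4. Its signal was 232 in the pooled list, 90.5 in replicate 1 and 138 in replicate 2. The peak in twk-5, which encodes a potassium channel subunit, was near B0334.12 and had 195 in the pooled list, 90.9 in replicate 1 and 106 in replicate 2. The peaks in Y43F8C.7 (165), catp-8 (164, a P-type ATPase gene) and ppat-1 (144) were 20, 55 and 5 bp upstream of the snoRNA genes Y43F8C.22, C10C6.8 and T04A8.17. All of these snoRNA peaks were called in each replicate's own list.

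Summits lay mostly just before the snoRNA gene rather than in it. Of 23 summits, 18 were upstream of the annotated 5' end, 4 inside the gene and 1 past its 3' end, and the median summit was 20 bp upstream (range 80 bp upstream to 129 bp downstream of the 5' end). The snoRNA had the host gene's strand in 15 of 23 cases. Of 138 snoRNA genes whose midpoint met the location rule, 24 (17.4%, exact 95% interval 11.5 to 24.8) had an intronic DMD-9 peak within 100 bp. Of the corresponding snRNA genes, 8 of 53 (15.1%, 6.75 to 27.6) had one, and of the miRNA genes 2 of 84 (2.38%, 0.290 to 8.34).

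**Figure D1:**
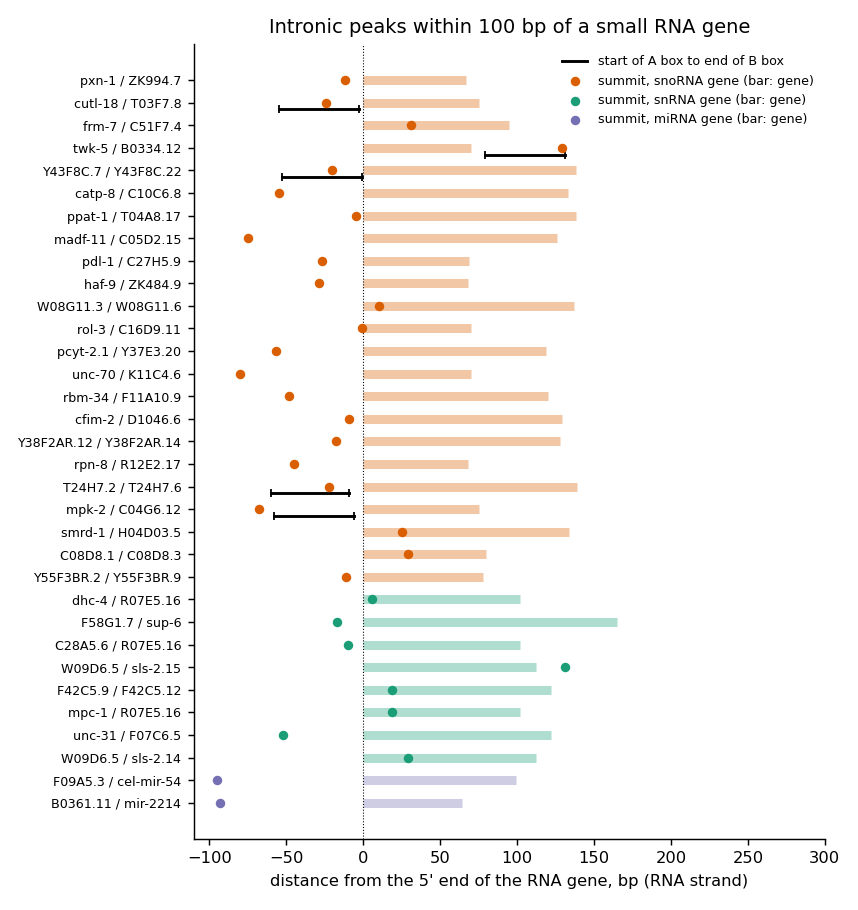
Summits of the 33 intronic peaks near a small RNA gene (points), placed by their distance in bp from the 5' end of the RNA gene on its own strand, with the RNA gene as a bar and the stretch between the start of the A box and the end of the B box as a black line. Rows are host gene and RNA gene, by class and then by falling signal, and 23 of the 33 summits lie upstream of the RNA gene's 5' end.

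The snRNA peaks were in part on repeated genes. In dhc-4, a dynein heavy chain gene, the summit was 6 bp inside an snRNA gene (WBGene00014543), and the signal was 207 in the pooled list, 102 in replicate 1 and 102 in replicate 2. The peak sequence had 4 further copies in the genome at 90% identity over at least 50% of the peak. The peak in F58G1.7 was 17 bp upstream of sup-6, annotated as an snRNA gene, and had 167 in the pooled list, 81.1 in replicate 1 and 84.6 in replicate 2. Both were called in both replicates. By contrast, W09D6.5 held 2 peaks of lower signal than these, with 87.1 and 68.2 in the pooled list, beside the spliced leader genes sls-2.15 and sls-2.14. Neither was in a replicate's own list.

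Outside these classes, the peak in ints-8, which encodes a subunit of the Integrator complex, had a signal of 213 in the pooled list, 94.1 in replicate 1 and 113 in replicate 2. Its summit was 7 bp upstream of rpr-1, the RNA of RNase P, the enzyme that trims tRNA precursors. The peak in unc-104, the gene of a synaptic vesicle kinesin, had 156, 66.3 and 79.6 in these lists. Its summit was inside a 72-bp pseudogene (WBGene00023260) that RefSeq calls a tRNA pseudogene, and the B box printed above is in it. A tRNA pseudogene of RefSeq lay within 100 bp of 2 of 241 intronic peaks (0.830%), against 58 of 32704 weaker intronic peaks (0.177%).

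These weaker peaks serve as the background of position. They are the 32704 peaks of the authors' ranked pooled list that fell below the authors' threshold, a global irreproducible discovery rate (IDR) of 0.01, and met the same location rule. A small RNA gene lay within 100 bp of 33 of 241 intronic peaks (13.7%, exact interval 9.62 to 18.7), against 110 of 32704 weaker ones (0.336%), an odds ratio of 47.0 (30.1 to 71.8; two-sided exact test, adjusted p = 1.44e-39 over 3 tests). In the single-replicate lists the odds ratio was 101 without replicate 2 (26 of 83 peaks) and 54.0 without replicate 1 (17 of 72). Over the whole pooled list 5.58% of peaks were that close to one, and of the 917 other pooled peaks over 100 bp from tRNA genes 43 were (odds ratio 3.22; adjusted exact p = 1.05e-05, a comparison chosen after the data were seen). Peaks are counted here, not animals, and they share 2 libraries, so these p-values do not measure variation between worm populations.

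The A box and B box were more frequent than in weaker intronic peaks. Windows of 101 bp centred on the summit were searched on both strands for 10 motifs. The A box was in 12 of 241 intronic windows (4.98%, exact interval 2.60 to 8.54), against 67 of 32704 weaker ones (0.205%), an odds ratio of 25.5 (12.4 to 48.4), with p = 5.93e-12 by Fisher's exact test after adjustment. The B box was in 9 of 241 (3.73%), against 264 of 32704 (0.807%; odds ratio 4.77, two-sided exact test, adjusted p = 0.000494). Base composition moved with this: median GC was 48.5% in intronic windows and 35.6% in weaker ones. Among windows of 40 to 60% GC the A box still differed, with 11 of 175 against 51 of 10537 (odds ratio 13.8, two-sided exact test, adjusted p = 3.99e-08), and the B box had 7 of 175 against 153 of 10537 (odds ratio 2.83, adjusted p = 0.0531). The B box had an odds ratio of 9.0 without replicate 2, and without replicate 1 it missed the threshold (3 of 72 peaks, odds ratio 4.64, exact test, adjusted p = 0.0764). Peaks in the 5' end window gave the A box in 4 of 548 (0.730%; odds ratio 7.11, 2.13 to 30.6; two-sided exact test, adjusted p = 0.00278). The B box was in 9 of 241, against 7 of 548 there, which missed the threshold (odds ratio 2.99, exact test, adjusted p = 0.251), as it did without the peaks beside small RNA genes (4 of 208 against 260 of 32594, odds ratio 2.44, exact test, adjusted p = 0.126).

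The 2 boxes occurred together in a recurring arrangement. Within 100 bp of the summit, 11 intronic peaks held an A box followed on the same strand by a B box spelled GTTCNANNC, with 32 to 34 bases between them. This arrangement was noticed after the values were seen and is given without a test. The search allowed up to 100 bases between the boxes in every set, and a pair was present in 11 of 241 intronic peaks (4.56%, exact interval 2.30 to 8.02), in 2 of 548 peaks of the 5' end window (0.365%) and in 84 of 32704 weaker intronic peaks (0.257%). The 221 pooled peaks near tRNA genes, left out by the rule, had a pair in 15 cases (6.79%).

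In 5 of these 11 peaks a snoRNA gene was near. In 3 of these 5, Y43F8C.7, T24H7.2 and mpk-2, both boxes lay before the snoRNA gene and on its strand. The A box started 53, 60 and 58 bp upstream of the annotated 5' end, and the B box ended 1, 9 and 6 bp upstream of it. In twk-5, the boxes were on the strand opposite to B0334.12 and beyond its 3' end. The fifth is not described here. In tba-7, an alpha-tubulin gene, the boxes were inside the non-coding RNA gene T28D6.15, with the A box starting 15 bp after its 5' end.

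The other 5 pairs had no annotated RNA gene or pseudogene within 100 bp. They were in lips-10 (signal 115), Y6B3B.1 (82.7), Y50D7A.1 (82.6), cyp-42A1 (81.8) and srt-52 (64.2), with 34, 34, 34, 32 and 34 bases between the boxes. The lips-10 peak was called in both replicates, that in Y6B3B.1 in replicate 1 alone, and those in Y50D7A.1 and cyp-42A1 in neither. The peaks in Y6B3B.1 and Y50D7A.1 had 30 and 27 further copies in the genome, and the other 3 none. The A boxes of 4 of them, shown because they lack an annotated gene, were as follows, with the box in capitals.

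lips-10, chrII:8441677-8441706, minus strand: aagccttgcTGGCTTAGTGGctaaaagttt

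Y50D7A.1, chrIII:302708-302737, plus strand: ttttcggcaTGGCCGAGTGGttagtgcgta

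cyp-42A1, chrV:18913290-18913319, minus strand: aggaaggggTGGCGCAGTGGgtaagaggct

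srt-52, chrV:53474-53503, plus strand: tgtttcgcaTGGCCGAGTGGttagtacgta

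A TATA box (TATAAA) was within 50 bp of the summit in 7 of 33 peaks beside small RNA genes and in 2 of 208 other intronic peaks, a contrast given without a test. Of these 7, 4 were beside snoRNA genes and 3 beside snRNA genes. The 3 snRNA genes, in dhc-4, C28A5.6 and mpc-1, carry the same name, R07E5.16, and the peak sequences there had 4, 5 and 5 further copies in the genome. Over all 241 it was less frequent than in weaker intronic peaks, at 3.73% against 9.38% (odds ratio 0.375, two-sided exact test, adjusted p = 0.00240), but in windows of 40 to 60% GC it was in 8 of 175, against 369 of 10537 (odds ratio 1.32, exact test, adjusted p = 0.554). The difference also missed the threshold in the list of either replicate alone, with odds ratios of 0.919 without replicate 2 and 0.816 without replicate 1. A run of 8 T was in 2.91% of intronic windows, against 14.9% of weaker ones (odds ratio 0.171, two-sided exact test, adjusted p = 7.24e-09), and this too missed the threshold within those GC limits (odds ratio 0.365, adjusted p = 0.236).

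The GAGAGA repeat was in 34 of 241 intronic windows (14.1%, exact interval 9.97 to 19.1), against 1612 of 32704 weaker ones (4.93%; odds ratio 3.17, two-sided exact test, adjusted p = 1.66e-07). It also differed within 40 to 60% GC, with 28 of 175 against 837 of 10537 (odds ratio 2.21, exact test, adjusted p = 0.00201). Its odds ratio was 5.61 without replicate 2, and without replicate 1 it missed the threshold (8 of 72 peaks, odds ratio 2.12, exact test, adjusted p = 0.126). The 5' end window had it in 95 of 548 windows (17.3%; odds ratio 0.784, interval 0.496 to 1.21; exact test, adjusted p = 0.821), so no difference between these classes was detectable. Of the 34 carriers, 30 were not beside a small RNA gene, and they included the peaks in max-2, epg-9, tra-1, daf-5 and act-4. The SP1 box CCGCCC (15 peaks, odds ratio 2.45, adjusted p = 0.00361) and the E box CACGTG (10 peaks, odds ratio 2.34, adjusted p = 0.0203; Fisher's exact test) passed the threshold over all windows and missed it within 40 to 60% GC, at adjusted p = 0.819 and 0.405. Both also missed it with either replicate left out, the SP1 box at odds ratios of 2.59 without replicate 2 and 3.00 without replicate 1, and the E box at 1.21 and 1.94.

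Motifs of DM-domain proteins did not separate the intronic peaks from weaker ones. The core TGTTGC given for MAB-3 was in 11 of 241 (4.56%, exact interval 2.30 to 8.02), against 1360 of 32704 (4.16%), with an odds ratio of 1.1 (0.541 to 2.02; two-sided exact test, adjusted p = 0.827). The site ACATTGT given for vertebrate DMRT proteins was in 3 of 241 (1.24%), against 438 of 32704 (1.34%; odds ratio 0.929, 0.189 to 2.77; exact test, adjusted p = 1). The GATA site CTTATCA was in 0 of 241, which by its exact interval allows a share of up to 1.52%, against 1.18% of weaker peaks (exact test, adjusted p = 0.154).

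**Figure D2:**
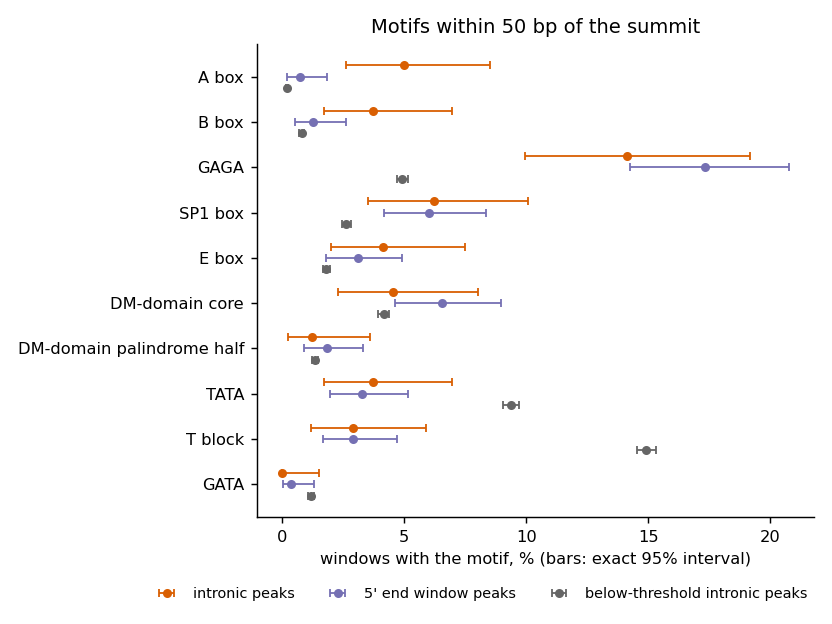
Share of 101-bp windows centred on the summit that hold each motif on either strand, in percent, for the 241 intronic peaks, the 548 peaks of the 5' end window and the 32704 weaker intronic peaks, with exact 95% intervals. The A box stands at 4.98% in intronic peaks, against 0.730% at 5' ends and 0.205% in weaker intronic peaks, and GAGA at 14.1%, against 17.3% and 4.93%.

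Of 2080 6-mers, with reverse complements merged, 294 were more and 136 less frequent in intronic than in weaker windows (Fisher's exact test with Benjamini-Hochberg adjustment). Median GC of these 6-mers was 66.7% for the more frequent and 16.7% for the less frequent ones. Within 40 to 60% GC, 24 were more and 8 less frequent, and all 24 were among the 294. The leading ones there were AGAGAC (28 of 175 intronic windows, against 5.57%, adjusted p = 0.00141), CACTCG (18 of 175, 10.3%, against 2.61%, adjusted p = 0.00141) and CGAGAG (23 of 175, 13.1%, against 4.57%, adjusted p = 0.00531), by Fisher's exact test. CACTCG read on the other strand is CGAGTG, which shares letters with the A box.

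The strongest intronic peaks stood in genes of many kinds. First and second were 2 peaks in intron 8 of brc-1 (WBGene00000264, chrIII:3855027-3855153 and chrIII:3857148-3857282), the worm BRCA1 gene of DNA repair. Their signals were 310 and 288 in the pooled list, 141 and 130 in replicate 1, and 172 and 151 in replicate 2. One summit was in a pseudogene of 1860 bp, and the sequences had 13 and 7 further copies in the genome. In mod-5, the serotonin transporter gene, the stronger of 2 peaks had 265 in the pooled list, 105 in replicate 1 and 161 in replicate 2, with 8 further copies. Copies matter for these values, since reads from like sequences can be placed at either, and how such reads were treated is not given in the sources used here.

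Other strong peaks had no second copy or few. The peak in intron 2 of cmk-1 (chrIV:1831228-1831511), which encodes a calcium/calmodulin-dependent kinase, had 266 in the pooled list, 135 in replicate 1 and 123 in replicate 2, with 2 further copies. That in Y56A3A.7 had 231, 110 and 110 in these lists, and that in mom-1, a gene for Wnt secretion, 208, 104 and 113, both with none. In max-2, the gene of a kinase of axon guidance, the values were 191, 91.8 and 96.0, with 4 further copies. In gly-5, a glycosyltransferase gene, they were 170, 71.6 and 100, with none. The values of the 2 replicates are not scaled to each other, so which one was higher is not read as a difference.

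Y65A5A.2 held 2 of the 25, with pooled signals of 168 and 146 in its intron 3. The rest with no RNA gene beside them were ari-1.4 (160, a ubiquitin ligase gene of the ariadne family), B0511.11 (157), scc-2 (152, the cohesin loader) and epg-9 (141, an autophagy gene). The B0511.11 peak had 7 further copies in the genome, and those in Y65A5A.2, ari-1.4, scc-2 and epg-9 had none. The peak in scc-2 was the single one of the 25 without a call in both replicates, with no peak in the replicate 1 list and 80.2 in replicate 2. Its value in the ranked, unthresholded list of replicate 1 was 72.5. All 25 were in the conservative list, which the authors made from the 2 replicates against each other, and 13 of the 25 had no RNA gene or pseudogene within 100 bp.

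Over all 241, the pooled signal ran from 3.84 to 310 with a median of 76.6 (quartiles 69.4 and 105). Medians were 94.5 in the 548 peaks of the 5' end window, 83.0 in the 239 outside protein-coding genes, 71.0 in the 110 in coding exons, and 96.6 in the 221 near tRNA genes, which the rule left out. The weaker intronic peaks had a median of 21.6, by the threshold that defines them. In the ranked replicate lists 236 intronic peaks had a value in both, with a median of 38.0 in replicate 1 and 43.7 in replicate 2. The 2 lists are not scaled to each other, so these medians show no difference between replicates. Across these 236 peaks the rank correlation (Spearman) was 0.384 and the linear one of log10 values (Pearson) 0.581, given as a description, since the peaks share 2 libraries and their reads enter the pooled list.

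**Figure D3:**
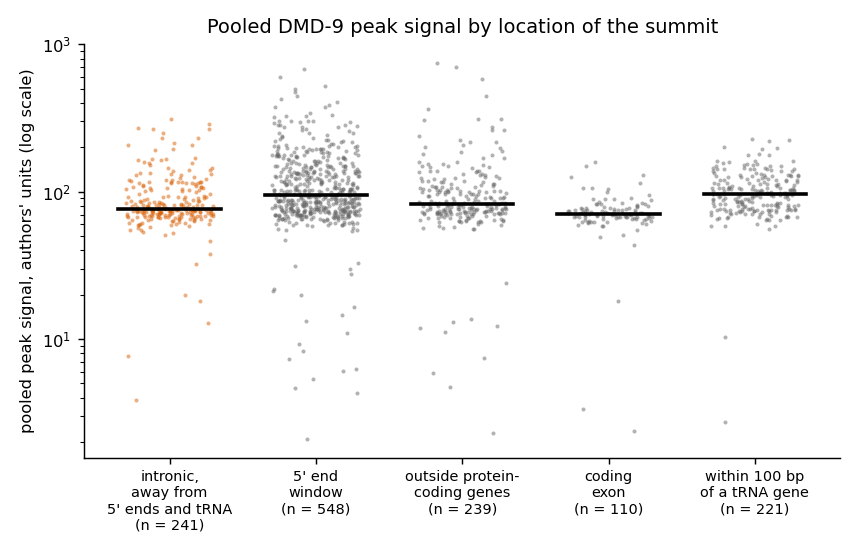
Pooled signal of each peak, in the authors' units on a log scale, by the place of its summit, with the median as a bar. The median is 76.6 in the 241 intronic peaks, against 94.5 in the 5' end window, 83.0 outside protein-coding genes, 71.0 in coding exons and 96.6 near tRNA genes, and the ranges overlap throughout.

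**Figure D4:**
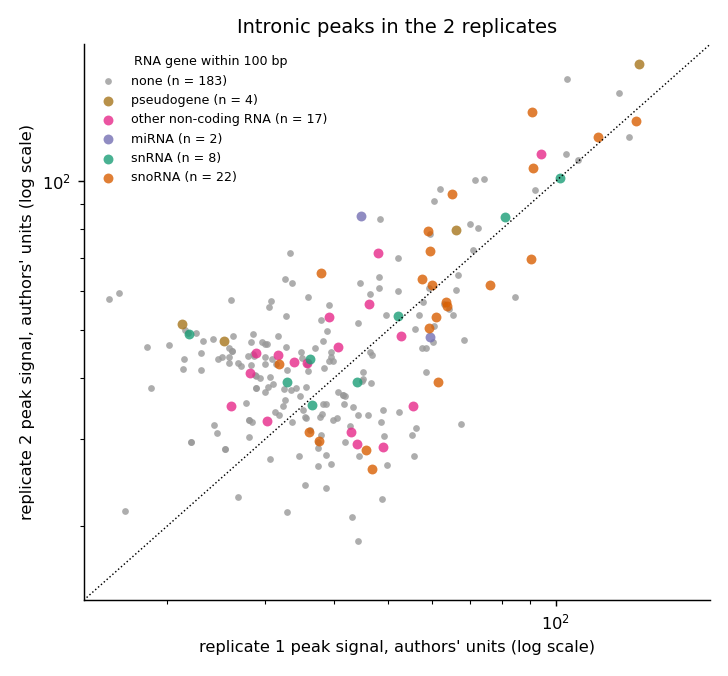
Signal of the 236 intronic peaks with a value in both ranked replicate lists, in the authors' units on log axes, coloured by the RNA gene within 100 bp, with a dotted line of equal values. The 2 lists are not scaled to each other, so the side of the line on which a peak falls is not read. Most snoRNA peaks sit in the upper right, and among the weaker peaks the values of the 2 replicates are spread widely.

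Most intronic peaks were not called in either replicate alone. A replicate 1 peak overlapped 76 of 241 (31.5%) and a replicate 2 peak 65 (27.0%), where 40% and 37.9% of the whole pooled list had one. Calls in both replicates were found for 44 of 241 (18.3%, exact interval 13.6 to 23.7), against 257 of 917 other peaks over 100 bp from tRNA genes (28.0%; odds ratio 0.574, 0.392 to 0.827; two-sided exact test, adjusted p = 0.00274 over 5 tests), where the whole list had 26.7%. A q value at or under 0.05 was given for 86 of 241 (35.7%), against 48.9% of the others (odds ratio 0.581, exact test, adjusted p = 0.000689), where the whole list had 48.7%. The conservative list held 169 of 241 (70.1%), against 80.8% of the others (odds ratio 0.558, exact test, adjusted p = 0.000911), where the whole list had 80%. Signal moved with these shares, as the medians above show, and its part in them was not tested. Under a global IDR of 0.001 none of these 3 differences passed the threshold. In the single-replicate lists, which hold 83 intronic peaks without replicate 2 and 72 without replicate 1, the q and conservative list differences also missed it, with odds ratios of 0.685 and 1.26 for q and 0.620 and 0.521 for the conservative list. The 917 others include 548 peaks of the 5' end window, where the 3 shares were 37.2%, 58.4% and 85.4%. Against that window alone the odds ratios were 0.377, 0.396 and 0.402 (exact test, adjusted p = 1.34e-07, 1.94e-08 and 1.56e-06). Outside protein-coding genes the shares were 20.5%, 46.0% and 77.8%. In coding exons they were 2.73%, 13.6% and 66.4%, below those of intronic peaks.

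Peaks beside small RNA genes were called more often. Of these 33, 23 (69.7%, exact interval 51.3 to 84.4) had a peak in replicate 1, 18 (54.5%) in replicate 2 and 17 (51.5%) in both, and 27 were in the conservative list. Of the other 208 intronic peaks, 53 (25.5%, 19.7 to 32.0) had one in replicate 1, 47 (22.6%) in replicate 2 and 27 (13.0%) in both. This contrast was chosen after the values were seen and has no test.

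**Figure D5:**
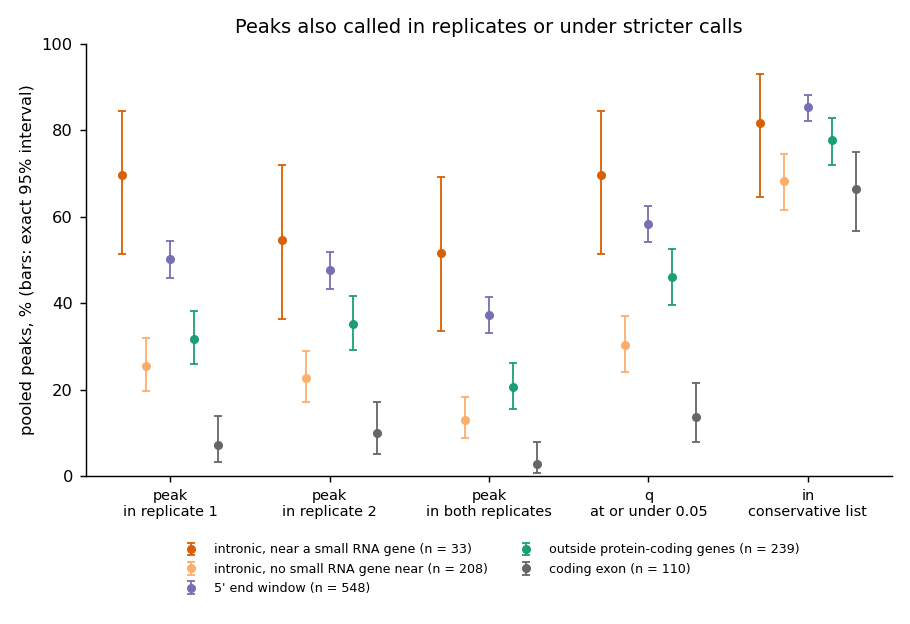
Share of pooled peaks, in percent with exact 95% intervals, that overlap a peak of replicate 1, of replicate 2 or of both, that have a q value at or under 0.05, or that overlap the conservative list. Intronic peaks near a small RNA gene have a peak in both replicates in 51.5% of cases, against 13.0% for other intronic peaks, 37.2% for the 5' end window, 20.5% outside protein-coding genes and 2.73% in coding exons.

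Some intronic peaks lay in repeated sequence. A further copy in the genome was found for 58 of 241 (24.1%), against 119 of 917 other pooled peaks over 100 bp from tRNA genes (13.0%; odds ratio 2.12, 1.46 to 3.06; two-sided exact test, adjusted p = 0.000248). This missed the threshold without replicate 2 (odds ratio 1.52, exact test, adjusted p = 0.400), without replicate 1 (2.17, exact test, adjusted p = 0.0572) and at a global IDR of 0.001 (2.22, exact test, adjusted p = 0.0961). Of these 58, 9 had exactly 1 further copy and 24 had 10 or more, up to 997. The 917 others include 548 peaks of the 5' end window, of which 45 (8.21%) had a copy, a lower share than among the 917. Against that window alone the odds ratio was 3.54 (exact test, adjusted p = 1.94e-08). The others outside that window were not compared apart. The share of summits in masked repeats was 59 of 241, against 183 of 917 among the others (odds ratio 1.30, 0.912 to 1.84; exact test, adjusted p = 0.131). Of the weaker intronic peaks, 48.9% had the summit in masked sequence, against 24.5% of the 241. The part of this in the contrasts with weaker peaks was not tested. Only 5 of the 33 peaks beside small RNA genes had a copy, and none of these 33 summits was in masked sequence.

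The label held in most cases but not in all. An intron of a protein-coding transcript contained 235 of the 241 summits, and 6 lay inside a gene in no such intron. Of these 6, 4 were in tos-1, a gene used to report splicing, with pooled signals of 113, 91.6, 85.5 and 52.5, in sequence that Ensembl gives to a non-coding transcript of the gene. A protein-coding 5' end, that of the host gene included, lay within 2000 bp of 101 summits, and the median distance to the nearest was 2447 bp. Just inside the limits were peaks in dhhc-3 and srh-2, 1017 and 1029 bp upstream of a 5' end (signals 71.8 and 68), and in csnk-1 and F12F6.1, 211 and 236 bp downstream (7.64 and 65.0). Just outside were Y53F4B.25 and fars-1, 983 and 979 bp upstream (76.4 and 134), and gei-4 and M04G7.2, 199 and 177 bp downstream (87.1 and 92.3). The peaks nearest to a tRNA gene that were kept, in wdr-31 and pxn-1, were 822 and 931 bp away, and those left out nearest the limit, in spe-15 and ZK1193.2, were 75 and 65 bp away (130 and 135).

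The introns themselves were long. The median was 1647 bp (quartiles 701 and 4118.5), against 1060 bp (495 and 2867) for the weaker peaks. The first intron held 63 of 235 (26.8%), against 22.2% of weaker peaks (odds ratio 1.28, 0.943 to 1.72; two-sided exact test, adjusted p = 0.0983), and counting the first intron of any transcript gave an odds ratio of 1.40 (adjusted p = 0.0208). Chromosomes I and III held 56 and 55 peaks, or 10.2 and 11.3 for each Mb of sequence the rule allows, against 7.90 over the genome and 5.49 on X. The share on X was 11.6%, against 16.2% of weaker peaks (odds ratio 0.678, 0.440 to 1.01; exact test, adjusted p = 0.0802).

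The 241 peaks fell in 231 regions after merging within 1000 bp and in 218 host genes, 198 of which held 1 peak. At least 3 peaks were found in tos-1 (4) and ppfr-1 (3, the gene of a phosphatase regulatory subunit), whose strongest peak had a signal of 125 and 131 further copies in the genome. Of 17555 protein-coding genes with sequence the rule allows, 1.25% held a peak in them, counting overlapping genes. Shares of host gene lists are read against that value and depend on intron length. Among 69 synapse and vesicle genes 5 held a peak (7.25%), among them mod-5, unc-104 and unc-26 (109, synaptojanin). The peaks in these named genes had further copies in the genome: 8 and 6 in mod-5, 1 in unc-104 and 5 in unc-26. Among 74 signalling genes 5 did (6.76%), with daf-2 (102, the insulin receptor), pdk-1 (82.5), mpk-1 (81.8, the ERK kinase) and daf-5 (74.8) leading. The daf-2 peak was called in replicate 2 alone, with its summit in masked sequence and 4 further copies in the genome. These peaks in pdk-1 and mpk-1 were called in neither replicate.

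Per Mb of allowed sequence these 2 lists had 18.8 and 18.1 peaks, against 7.90 over all genes. The highest values, 214 for ribosomal protein genes and 44.8 for the cuticle list, rest on 1 and 3 peaks in 0.00467 and 0.067 Mb. Below the genome were ion channel genes (2.65), axon guidance genes (2.6), homeobox genes (3.03) and extracellular matrix genes (4.73). The muscle list had 17.2, from 3 of 61 genes: lev-11 (87.9, tropomyosin), act-4 (84.2 and 76.1, actin) and zyx-1 (72.2). G protein and second messenger genes held a peak in 6 of 119, led by rgs-4 (88.3) and pkc-1 (86.2), and nuclear hormone receptors in 5 of 269, led by nhr-3 (80.9). Ion channel genes held one in 3 of 258 (twk-5, lgc-19 and acr-12), chromatin genes in 3 of 104 (pbrm-1, lin-9 and zfp-1), and RNA-binding genes in 2 of 68 (rbm-34 and ptb-1, of which the rbm-34 peak is beside a snoRNA gene). The axon guidance list had 2 of 104 (max-2 and unc-73), and the extracellular matrix list 1 of 35 (pxn-1). In the cuticle list, drawn up by gene symbol, 3 of 137 genes held a peak, of which col-72 (102) and col-52 (60.3) are collagens, while rol-3 is not one.

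Among 36 genes of sex determination and dosage compensation, tra-1, the last transcription factor of the sex determination pathway, held a peak of signal 72.9 that neither replicate called. None of 10 DM-domain genes and none of 16 genes known from the BAG neurons held an intronic peak. These lists have 0.0327 and 0.0427 Mb of allowed sequence, against 7.90 peaks per Mb over all genes. Lists this small can hold none without differing from the genome. Homeobox genes had 1 of 101 (zfh-2, 75.1) and ribosomal protein genes 1 of 37 (rpl-19, 79.8). With so few peaks per list, most of these shares rest on 1 to 6 genes. Neither replicate called the peaks named in lev-11, rgs-4, pkc-1, lin-9, ptb-1, col-72 and rpl-19. Both called those in twk-5, max-2, pxn-1, rol-3 and unc-104, and only 1 called those in nhr-3, rbm-34 and pbrm-1.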

How the data were processed

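Whole L4 worms of 1 group, with 2 biological replicates, were measured by ChIP-seq. Per the labels the authors' peak lists are on ce11 and come from IDR comparison; aligner and caller: not given in the sources used here. The authors deposited a ranked and a thresholded list for each replicate, for pooled reads and for the 2 replicates against each other. The deposited signal is the authors' value per peak; the deposited −log10 values are of q and IDR; the deposited score follows from the IDR, and summit offsets give positions. In each of 4 ranked lists 8 columns of paired calls name no replicate and were left unused. Depth is unknown, so intervals (exact, Clopper-Pearson, 95%) cover counting of peaks only.

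Summits were placed with Ensembl release 115. Replicate overlap needed 1 shared bp. Sequence came from the RefSeq WBcel235 genome, copies from blastn 2.17.0 (90% identity over 50% of the peak). Shares were compared by two-sided Fisher's exact tests (scipy 1.17.1), with Benjamini-Hochberg adjustment within families of 5, 3 and 10 tests and a threshold of 0.05. The location rule and the share tests were tested on constructed positions and simulated shares. Named genes are hosts of the 25 peaks of highest signal, hosts with at least 3 peaks, up to 10 peaks near a non-coding RNA gene, up to 4 per host list and 2 peaks on each side of each limit; T24H7.2, mpk-2, tba-7, W09D6.5, the hosts of box pairs with no RNA gene, and the GAGA carriers epg-9, tra-1, daf-5 and act-4 were picked after their values were seen. Members, gene lists and motifs were chosen with earlier results of these data known. Alternatives were other lists, thresholds, windows, definitions and, added after seeing the data, GC limits and comparison sets. Sequences on chromosome I, and a further sequence of a strong motif carrier, are not reported here.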

Additional observations from a re-analysis of the deposited data

Results flagged for a closer look

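The ranked pooled list holds 64 peaks that pass the IDR threshold but are absent from the thresholded list, and 2 of these meet the location rule. The stronger is in usp-39 (chrII:2570722-2571005), with a signal of 109.58, above the median of 76.6 in the 241 intronic peaks, and the other is in clec-80 (chrIV:2824420-2824703), with 79.1. It stood out because this signal lies in data that the counts above do not use. Neither has an RNA gene or pseudogene within 100 bp.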

How the results depend on the processing

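Values here are odds ratios unless named otherwise, and 94 of 152 alternative values kept both direction and side of the threshold. The small RNA gene and A box results stayed past the threshold under the alternatives run for them, at 23.8 (summit inside the RNA gene) to 156 (IDR of 0.001) for the first, or 3.22 against other pooled peaks, and 7.11 (against the 5' end window) to 48.65 (that IDR) for the second. Under the conservative list the lower shares called in both replicates (0.684) and with q at or under 0.05 (0.725) missed the threshold, and first introns passed it (1.53). At a global IDR of 0.001 the values were 0.832 for both replicates, 1.64 for q (0.5 added to each cell, since all intronic peaks had it), 0.177 for the conservative list, 2.22 for copies, 0.564 for masked sequence and 0.999 for first introns, none past it. Among peaks of q at or under 0.05 they were 0.808 for both replicates, 1.15 for the conservative list and 0.819 for masked sequence. First introns of any transcript gave 1.40. The share of intronic peaks was 17.5% of the pooled list and moved to 12.4% at that IDR, 12.8% at that q, 13.7% with a wider 5' end window and 12.9% with no base in an exon. The replicate rho was 0.667 over the 44 peaks in both thresholded lists.

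With either replicate left out, the lowest and highest values were 13.2% and 14.6% for the share of intronic peaks, 0.685 and 1.26 for q, 0.521 and 0.620 for the conservative list, 1.52 and 2.17 for copies, 0.616 and 1.30 for masked sequence, 4.64 and 9.0 for the B box, and 0.864 and 1.79 for the DM-domain core. For small RNA genes they were 54.0 and 101. Without replicate 1 the B box (4.64, exact test, adjusted p = 0.0764) and GAGA (2.12, exact test, adjusted p = 0.126) missed the threshold, and with either replicate left out q, the conservative list, copies, the SP1 box, the E box and TATA did.

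Alternatives chosen after seeing the data gave, within 40 to 60% GC, 2.83 for the B box, 1.59 for the DMRT site and 1.32 for TATA. The B box missed the threshold there and in both sets that follow. Without peaks near small RNA genes the B box had 2.44 and the DM-domain core 0.923. Against the 5' end window the B box had 2.99, the DM-domain core 0.681, GAGA 0.784 and TATA 1.14. The cause of these changes was not tested. No paired analysis was possible because there is 1 group. Peak numbers, and an unknown depth, limit the precision.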
